A study of Mus musculus with 6 samples.

Results

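Immediate early and stress genes were examined in RNA-seq data of sorted brain mural cells and brain microvascular fragments. The 42 genes are transcription factors, feedback inhibitors, growth arrest and survival genes and heat shock proteins, taken by their symbols in the GENCODE annotation of the NCBIM37 mouse assembly. All 42 were found among the 33460 genes of the deposited files. All samples came from the brains of 3 mice, at P6 (6 days after birth), which carried both the *NG2-DsRed* and the *Pdgfrb-eGFP* reporter (line Tg(Pdgfrb-eGFP)JN169Gsat/Mmucd). Neither reporter marks mural cells alone. One group holds 3 libraries of cells sorted by FACS for both reporters (mural cells), and the other holds 3 libraries of microvascular fragments bound to beads with anti-CD31 antibody. According to the methods, each brain was cut in the sagittal plane, and the sides went to different preparations. For the fragments, the tissue was chopped, digested with collagenase and incubated with the beads at room temperature before lysis. For the sorted cells, collagenase was used at a higher concentration with shaking and pipetting, and the cells were sorted into lysis buffer. All 6 samples were dissociated with collagenase, and preparation and cell composition differed together between the groups, so that their parts in a difference cannot be told apart.

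Immediate early genes are switched on within minutes of a stimulus without new protein synthesis, through kinase pathways that act on factors already bound at their promoters. Their products are mainly transcription factors, such as the FOS and JUN proteins of the AP-1 complex, and inhibitors that end the signal again. Enzymatic dissociation of a tissue is a known trigger of these genes and of heat shock genes in many cell types.

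As a check of the labels, 9 mural markers were 6.47- to 10.9-fold higher in the sorted cells, and all 9 passed the test described below (2 of them, *Pdgfrb* and *Cspg4*, belong to the reporters used for sorting). The median level in sorted cells was 64.1% of that in fragments for 12 endothelial markers and 8.59% for 8 microglia markers. Of the other marker lists, 5 of 5 perivascular macrophage genes were lower and 4 of 4 fibroblast genes were higher in sorted cells. The 8 astrocyte markers, of which 0 passed the test, summed to an FPKM (fragments per kilobase of transcript, scaled to the mapped fragments of the library) of 257, 213 and 752 in mural cell libraries 1, 2 and 3. The lists of oligodendrocyte lineage, neuron and erythroid genes had 1 of 7, 0 of 6 and 0 of 3 tested genes lower and 0 higher. Over all genes tested, 10.1% were lower and 6.43% higher. In these bulk samples, fewer cells of a type and less RNA per cell cannot be told apart. The libraries held approximately 5.41 to 5.94 M fragments on protein-coding genes in the microvascular group and 1.04 to 2.34 M in the mural group.

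Most of the immediate early and stress genes were lower in the sorted mural cells than in the fragments. Of the 41 genes that could be tested, 30 were called lower and 0 higher in mural cells (limma on log2(FPKM + 1), Benjamini-Hochberg adjusted p under 0.05 and a ratio of mean FPKM below 0.5 or above 2). That is 73.2% of the genes tested, whereas over all 14801 genes tested 10.1% were called lower and 6.43% higher. The fold differences of the 30 genes ranged from 2.04 (*Mcl1*) to 42.8 (*Fosb*). The median log2 fold change of the 41 genes was -1.99, beside -0.12 for all genes tested. For 34 of the 41 genes every mural cell library was below every fragment library, as was the case for 24.5% of all genes tested. For the remaining 7 the groups overlapped. Without the condition on the ratio, 32 genes were lower and 0 higher, beside 13% and 9.34% of all genes tested. A ratio under 0.1 was found for 11 of the 41 genes and for 4.26% of all genes tested. *Fosl1*, an AP-1 subunit, had an FPKM of 0.58, 0 and 0.285 in fragments and 0, 0.891 and 0 in mural cells and was not tested.

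**Figure D1:**
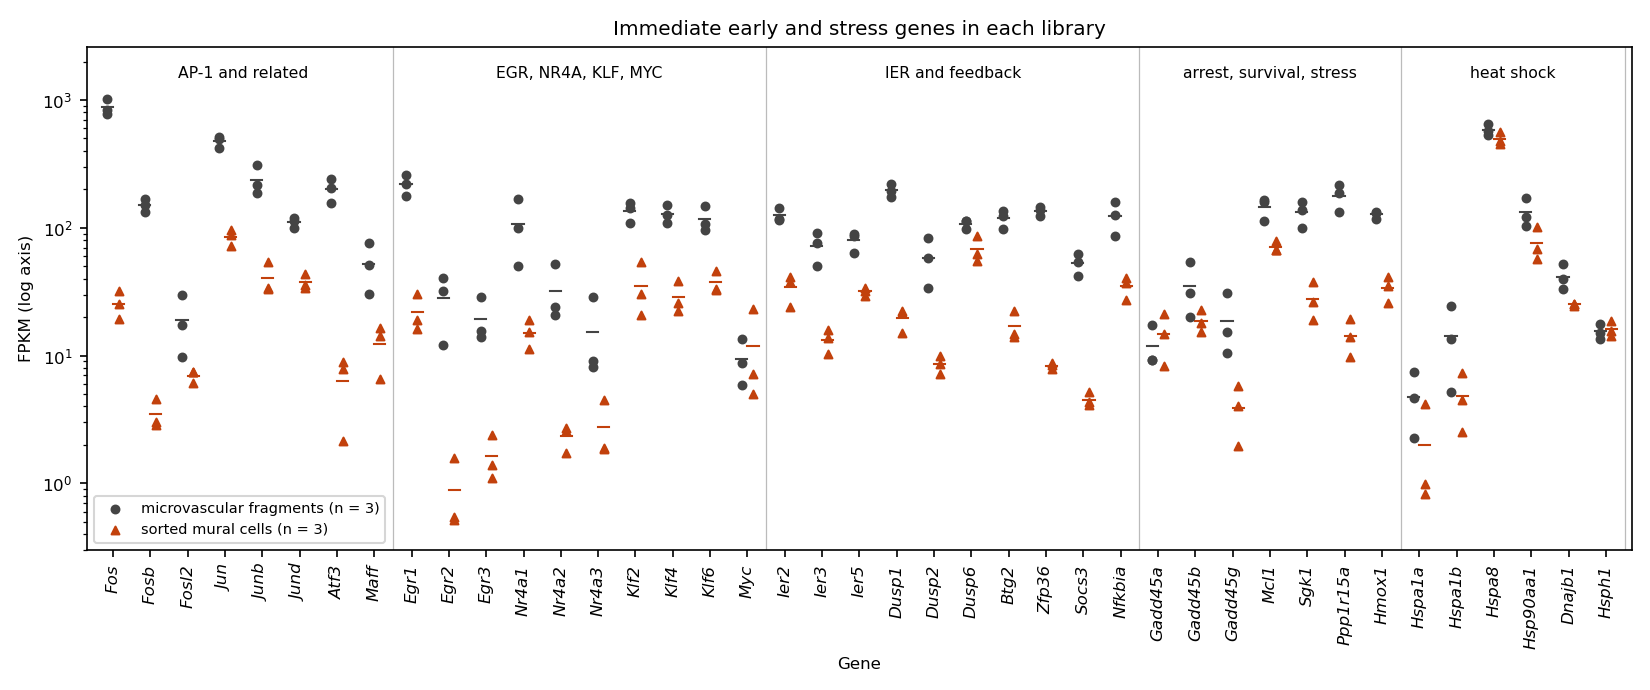
FPKM (log axis) of the 41 tested genes in each library, by role. Circles are the 3 fragment libraries, triangles the 3 mural cell libraries, and short lines the group means. *Fos* lies between 779 and 1013 in fragments and between 19.3 and 31.8 in mural cells, whereas the points of *Hspa8* overlap.

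The difference also showed in the rank of the genes. In fragments, 20 of the 41 genes were among the 500 genes with the highest mean FPKM and 3 among the first 100. In mural cells 1 gene, *Hspa8*, was among the first 500 and also among the first 100. The median FPKM of the 41 genes was 110.9 in fragments and 17.0 in mural cells, and the median over all genes tested was 12.8 and 12.1. *Fos* had rank 21 in fragments and rank 4232 in mural cells.

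To show the sequence in front of these genes, promoter windows of RefSeq (GRCm38.p6 table, 250 bases before the start of transcription) were searched on both strands. Of the 42 genes, 34 had a window, and *Egr1*, *Egr3*, *Fosl1*, *Hmox1*, *Hsp90aa1*, *Hspa8*, *Ier2* and *Myc* had none. The cAMP response element TGACGTCA, which CREB binds, was found for 4 genes (*Btg2*, *Dusp1*, *Maff* and *Ppp1r15a*). This is 11.8% of the 34 genes, beside 1.77% of the 27025 genes with a window. The CArG box, the core of the serum response element, was found for 2 genes (*Egr2* and *Zfp36*), that is 5.88% beside 1.62%. The AP-1 site TGANTCA was found for 0 of the 34 genes and 7.82% of all genes. A heat shock element written as GAANNTTCNNGAA was also found for 0, beside 0.514% of all genes. Genes with several starts of transcription have several windows, and these letters were searched in this window only. Among the called genes with a motif, 4 differed most between the groups, and their windows are printed from 5′ to 3′, with the motif in capitals. Each matched 1 place in NCBIM37, namely *Zfp36* at chr7:29164248-29164497 (minus strand), *Egr2* at chr10:67000064-67000313 (plus strand), *Ppp1r15a* at chr7:52781639-52781888 (minus strand) and *Dusp1* at chr17:26645418-26645667 (minus strand).
Zfp36: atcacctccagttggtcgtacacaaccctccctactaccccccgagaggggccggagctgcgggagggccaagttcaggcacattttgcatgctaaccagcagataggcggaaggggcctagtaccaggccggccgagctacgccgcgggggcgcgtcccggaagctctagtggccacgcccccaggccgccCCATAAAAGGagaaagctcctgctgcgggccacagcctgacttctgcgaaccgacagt
Egr2: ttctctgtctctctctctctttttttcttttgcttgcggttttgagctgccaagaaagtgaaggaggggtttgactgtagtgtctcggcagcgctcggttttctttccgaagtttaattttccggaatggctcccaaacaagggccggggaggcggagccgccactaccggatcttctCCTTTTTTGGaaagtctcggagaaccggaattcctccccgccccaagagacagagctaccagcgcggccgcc
Ppp1r15a: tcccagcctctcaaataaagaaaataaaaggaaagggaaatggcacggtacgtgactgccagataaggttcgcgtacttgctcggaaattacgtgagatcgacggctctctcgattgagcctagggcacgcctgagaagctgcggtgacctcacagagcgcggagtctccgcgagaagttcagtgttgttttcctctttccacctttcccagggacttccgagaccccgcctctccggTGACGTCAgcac
Dusp1: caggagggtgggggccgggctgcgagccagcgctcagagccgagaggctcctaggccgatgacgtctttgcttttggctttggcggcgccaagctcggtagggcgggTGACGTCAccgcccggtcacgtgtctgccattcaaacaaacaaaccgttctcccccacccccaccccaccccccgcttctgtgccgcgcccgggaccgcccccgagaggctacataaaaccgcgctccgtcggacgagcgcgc
In *Zfp36* the CArG box ended 49 bases before the start of transcription, and in *Egr2* 63 bases before the start that belongs to the printed window. *Egr2* has several starts. Its printed window lies inside the annotated gene (66998223 to 67004936), and the window of its first start held no CArG box. The cAMP response element ended 5 bases before the start in *Ppp1r15a* and 136 bases before it in *Dusp1*.

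Among the AP-1 genes and related factors, *Fosb*, *Fos* and *Atf3* differed most between the groups, and the JUN genes and *Fosl2* less. Of 8 genes tested, 7 were lower in mural cells, beside 10.1% of all genes tested, and *Fosl2* did not pass the test. In the following, FPKM values are given in the order of libraries 1, 2 and 3. *Fos* (chromosome 12, 86814840 to 86818223, plus strand), whose product pairs with JUN proteins in AP-1, had an FPKM of 840, 779 and 1013 in fragments and 19.3, 25.2 and 31.8 in mural cells. The groups were far apart, with means of 877 ± 121 (SD, n = 3) and 25.4 ± 6.22 (SD, n = 3), so that *Fos* was 34.5-fold lower in mural cells (log2 fold change -5.07, standard error 0.19, adjusted p = 4.2e-05 from limma). *Fosb*, another FOS family gene, had an FPKM of 150, 132 and 167 in fragments and 4.602, 3.03 and 2.86 in mural cells. Its difference of 42.8-fold was the largest of the 41 genes by the ratio of means (log2 fold change -5.08, standard error 0.19, adjusted p = 4.2e-05 from limma). The *Fosb* values rest on 1987 to 2770 fragments in the microvascular libraries but on 29, 8 and 8 fragments in the mural cell libraries.

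*Atf3*, a stress-induced factor of the ATF/CREB family, had an FPKM of 206, 156 and 242 in fragments and 8.86, 7.90 and 2.13 in mural cells. It was 32.0-fold lower in mural cells (log2 fold change -4.94, standard error 0.43, adjusted p = 3.4e-04 from limma), and mural cell library 3 was the lowest by a factor of 4.15 to the highest. The *Atf3* values in mural cells rest on approximately 28, 11 and 3 fragments, so that the spread and the fold difference are imprecise. The 3 JUN genes had higher mean levels in mural cells than *Fos* and *Fosb*. *Jun* had an FPKM of 424, 514 and 497 in fragments and 87.2, 95.3 and 71.7 in mural cells, a 5.64-fold difference (log2 fold change -2.49, standard error 0.14, adjusted p = 9.3e-05 from limma). For *Junb* the values were 310, 187 and 218 in fragments and 54.1, 33.4 and 34.0 in mural cells (5.88-fold lower). *Jund*, which is expressed in most unstimulated cells, had 99.9, 113 and 120 in fragments and 43.2, 33.5 and 35.7 in mural cells. Its difference of 2.96-fold was the smallest of the called AP-1 genes, with no overlap between the groups.

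*Maff*, a small MAF protein without an activation domain, had an FPKM of 75.4, 30.3 and 51.1 in fragments and 16.3, 14.2 and 6.59 in mural cells. It was 4.23-fold lower in mural cells, and without fragment library 3 the adjusted p was 0.053. *Fosl2* had an FPKM of 29.7, 9.67 and 17.4 in fragments and 6.07, 7.37 and 7.40 in mural cells. All mural cell libraries were below the fragments for *Fosl2*, but fragment library 2 was close to them, and the adjusted p was 0.057 (log2 fold change -1.20, 95% confidence interval -2.07 to -0.33). Without fragment library 2, *Fosl2* was called lower with an adjusted p of 0.016 from limma. In mural cells the order of levels was thus *Jun*, *Junb*, *Jund* and *Fos*, whereas in fragments it was *Fos*, *Jun*, *Junb* and *Jund* when *Atf3* and *Fosb* are left out. The ranges of *Junb* and *Jund* overlapped in mural cells, and the other neighbours in both orders did not overlap.

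**Figure D2:**
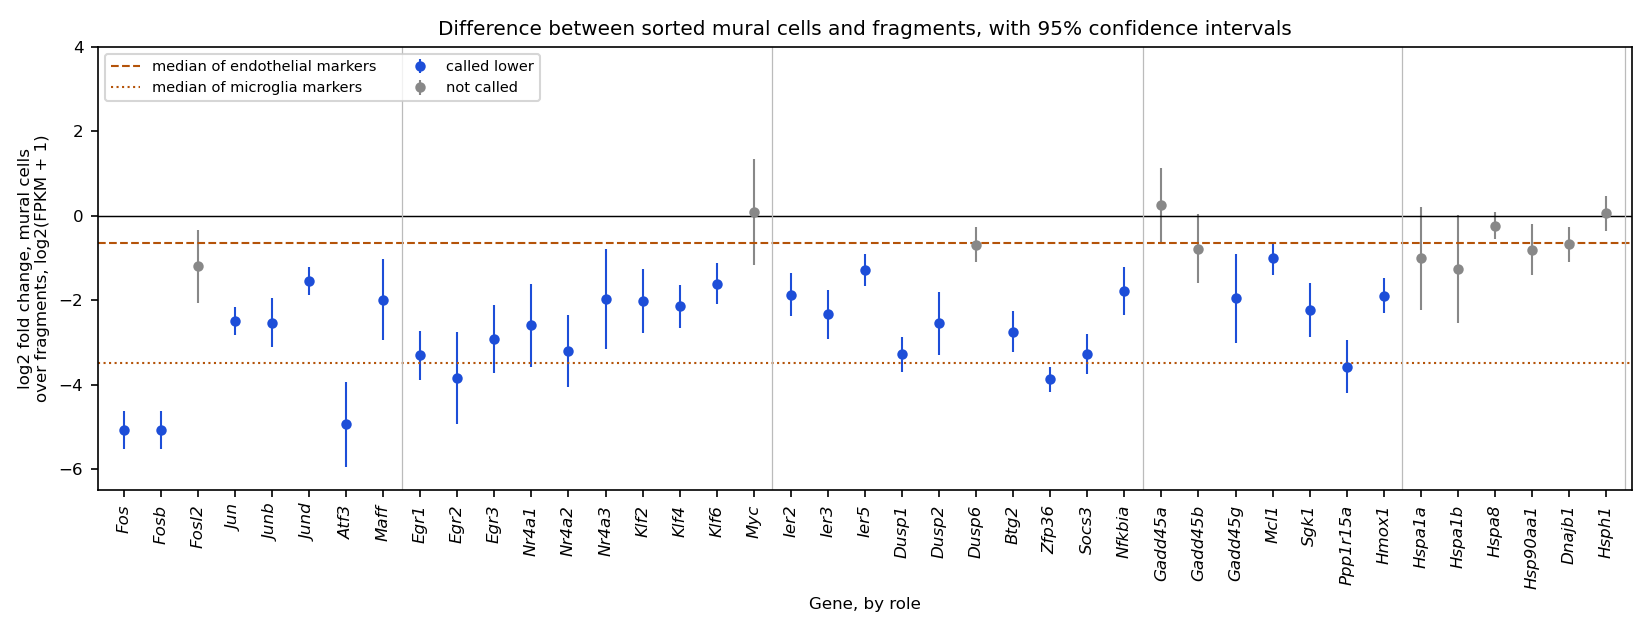
Log2 fold change of mural cells over fragments for each gene on the log2(FPKM + 1) scale, with 95% confidence intervals of the limma fit. Blue points were called lower and grey points were not called, and the brown lines are the medians of the endothelial (dashed, -0.65) and microglia (dotted, -3.49) markers. *Fos*, *Fosb* and *Atf3* lie at -4.94 or lower and the 6 heat shock genes between -1.27 and 0.05.

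The EGR, NR4A and KLF genes encode zinc finger factors and orphan nuclear receptors. All 9 were lower in mural cells, beside 10.1% of all genes tested. *Myc*, the tenth gene of this group, did not differ by the test. *Egr1*, a zinc finger factor induced by growth factors and stress, had an FPKM of 259, 177 and 221 in fragments and 30.4, 18.9 and 16.1 in mural cells (10.0-fold lower, log2 fold change -3.30, standard error 0.25, adjusted p = 2.0e-04 from limma). *Egr2* had 40.4, 12.1 and 32.3 in fragments and 1.58, 0.545 and 0.515 in mural cells, a 32.1-fold difference. These *Egr2* values in mural cells rest on approximately 8, 1 and 1 fragments, so that the size of the difference is imprecise, and without mural cell library 1 the ratio was 0.0188 instead of 0.0311. *Egr3* was at 28.5, 14.1 and 15.6 in fragments and 1.39, 1.10 and 2.38 in mural cells (11.9-fold lower), also from approximately 6 fragments in all mural cell libraries together. The 3 EGR genes thus shared the direction, but only *Egr1* was well above the level of single fragments in mural cells.

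The NR4A receptors act without a known physiological ligand in most settings and are controlled by their own transcription. *Nr4a1* had an FPKM of 169, 49.97 and 99.8 in fragments and 18.9, 15.4 and 11.2 in mural cells (7.02-fold lower, adjusted p = 0.0044 from limma). *Nr4a2* had 51.9, 20.6 and 23.9 in fragments and 2.56, 2.71 and 1.73 in mural cells (13.8-fold lower). These *Nr4a2* values in mural cells rest on approximately 15, 7 and 5 fragments, so that the size of the difference is imprecise. *Nr4a3* had 28.5, 8.10 and 9.09 in fragments and 1.90, 1.87 and 4.50 in mural cells (5.53-fold lower, adjusted p = 0.030). For all 3 genes fragment library 1 was the highest and fragment library 2 the lowest. The call of *Nr4a3* was lost when fragment library 1 or 3 or mural cell library 1 or 2 was left out, with an adjusted p of 0.074, 0.062, 0.076 and 0.071 from limma. Without fragment library 1 the ratio of *Nr4a3* was 0.321 instead of 0.181, and without a filter on low values its adjusted p was 0.0547.

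*Klf2*, a factor that blood flow induces in endothelial cells, had an FPKM of 109, 142 and 155 in fragments and 54.2, 30.2 and 20.8 in mural cells (3.86-fold lower, adjusted p = 0.0045 from limma). Its relative *Klf4* had 151, 109 and 126 in fragments and 38.2, 25.6 and 22.4 in mural cells (4.47-fold lower, adjusted p = 6.0e-04). *Klf6* had 95.5, 107 and 148 in fragments and 46.3, 33.4 and 32.5 in mural cells (3.12-fold lower, adjusted p = 0.0017). The ratios of *Klf2*, *Klf4* and *Klf6* were 0.259, 0.223 and 0.321, beside 0.353 for *Ly6c1*, the lowest of the 12 endothelial markers. These 12 markers had a median ratio of 0.641 and a highest ratio of 1.29. The 95% confidence interval of the log2 fold change of each KLF gene overlapped that of *Ly6c1* (-2.27 to -0.77). For *Klf6* it was -2.09 to -1.12. The median log2 fold change of the 12 endothelial markers, -0.65, lay outside the interval of each KLF gene. The part of endothelial RNA in these differences was not tested. *Myc*, a factor that drives growth, had an FPKM of 8.81, 13.5 and 5.90 in fragments and 7.19, 4.97 and 23.3 in mural cells. The groups overlapped (log2 fold change 0.09, 95% confidence interval -1.17 to 1.36, adjusted p = 0.92 from limma). *Myc* was highest in mural cell library 3, in which the summed level of the astrocyte markers was also highest. The *Myc* values in mural cells rest on approximately 27, 8 and 40 fragments. Without mural cell library 3 the log2 fold change was -0.51. The part of astrocyte RNA in the *Myc* value was not tested.

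The IER genes and the feedback inhibitors, which end kinase, cytokine and NF-kB signals or remove the mRNA of other early genes, were lower as well. Of 10 genes, 9 were called lower and *Dusp6* was not, beside 10.1% lower over all genes tested. For all 10 every mural cell library was below every fragment library, as for 24.5% of all genes tested. *Zfp36* encodes tristetraprolin, which binds AU-rich elements in mRNA and promotes decay. It had an FPKM of 146, 124 and 138 in fragments and 7.80, 8.44 and 8.77 in mural cells (16.3-fold lower, log2 fold change -3.87, standard error 0.13, adjusted p = 2.1e-05 from limma). Both groups of *Zfp36* values were narrow, with an SD of 11.3 around a mean of 136 and of 0.492 around 8.34. The mural cell values rest on 22, 10 and 11 fragments, so that their narrow spread is no measure of precision. *Socs3*, an inhibitor of JAK/STAT signalling, had 62.7, 42.1 and 53.9 in fragments and 4.08, 5.14 and 4.32 in mural cells (11.7-fold lower). Its mural cell values rest on approximately 17, 9 and 8 fragments, so that the fold difference is imprecise. *Nfkbia*, which encodes the NF-kB inhibitor IkB alpha, had 159, 86.6 and 125 in fragments and 40.2, 27.3 and 36.9 in mural cells (3.55-fold lower).

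The DUSP genes encode phosphatases that inactivate MAP kinases, and their differences were unequal. *Dusp1* had an FPKM of 174, 196 and 222 in fragments and 22.2, 14.99 and 21.4 in mural cells (10.1-fold lower, log2 fold change -3.28, standard error 0.18, adjusted p = 8.5e-05 from limma). *Dusp2* had 83.2, 33.7 and 57.9 in fragments and 9.97, 8.53 and 7.17 in mural cells (6.81-fold lower). Its mural cell values rest on approximately 25, 9 and 8 fragments, so that the fold difference is imprecise. *Dusp6*, which acts on ERK in the cytoplasm, had 113, 98.2 and 112 in fragments and 62.3, 86.4 and 54.8 in mural cells. The *Dusp6* difference of 1.59-fold had an adjusted p of 0.032 but was under the 2-fold limit (log2 fold change -0.68, 95% confidence interval -1.10 to -0.26).

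*Btg2*, an inhibitor of cell division, had an FPKM of 123, 97.6 and 134 in fragments and 22.2, 14.8 and 13.97 in mural cells (6.97-fold lower, adjusted p = 2.0e-04 from limma). The 3 IER genes differed less than *Btg2*, and their groups did not overlap. *Ier2* had 144, 116 and 116 in fragments and 41.5, 37.6 and 24.0 in mural cells (3.65-fold lower). *Ier3* had 90.4, 50.5 and 75.5 in fragments and 10.3, 15.9 and 13.6 in mural cells (5.43-fold lower). *Ier5* had 90.1, 63.2 and 86.2 in fragments and 29.4, 31.9 and 33.9 in mural cells (2.52-fold lower).

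Of 7 growth arrest, survival and stress genes, 5 were lower in mural cells, beside 10.1% of all genes tested. The other genes, 2 of the 3 GADD45 genes, were not called. *Ppp1r15a* encodes GADD34, which directs a phosphatase to the translation factor eIF2 alpha. It had an FPKM of 218, 132 and 186 in fragments and 19.3, 9.71 and 13.99 in mural cells (12.5-fold lower, log2 fold change -3.57, standard error 0.27, adjusted p = 2.1e-04 from limma). *Sgk1*, a kinase induced by serum and glucocorticoids, had 160, 99.5 and 137 in fragments and 37.9, 26.3 and 19.1 in mural cells (4.77-fold lower). *Hmox1*, which encodes the heme-degrading enzyme heme oxygenase, had 134, 117 and 131 in fragments and 34.9, 41.0 and 25.8 in mural cells (3.75-fold lower, adjusted p = 4.3e-04). *Mcl1*, a survival gene of the BCL2 family, stayed close to the 2-fold limit. Its FPKM was 159, 113 and 164 in fragments and 66.9, 79.3 and 67.2 in mural cells, a ratio of 0.490. The call of *Mcl1* was lost without fragment library 1 or 3 or mural cell library 1 or 3, with ratios of 0.514, 0.523, 0.504 and 0.503, while the adjusted p was between 0.0175 and 0.0271 from limma.

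The GADD45 genes, which encode stress sensor proteins that bind cell cycle and kinase regulators, did not move together. *Gadd45g* had an FPKM of 30.7, 10.4 and 15.2 in fragments and 1.95, 4.05 and 5.75 in mural cells (4.80-fold lower, adjusted p = 0.020 from limma). These *Gadd45g* values in mural cells rest on approximately 3, 3 and 4 fragments, so that the size of the difference is imprecise. Without fragment library 1 or 3 the adjusted p of *Gadd45g* was 0.065 in both cases. *Gadd45b* had a mean of 35.1 ± 17.6 (SD, n = 3) in fragments and 18.6 ± 3.70 (SD, n = 3) in mural cells, with overlapping libraries (log2 fold change -0.78, 95% confidence interval -1.59 to 0.03). *Gadd45a* had a mean of 11.98 ± 4.67 (SD, n = 3) in fragments and 14.8 ± 6.47 (SD, n = 3) in mural cells (log2 fold change 0.25, 95% confidence interval -0.63 to 1.13), and without mural cell library 3 the log2 fold change was -0.04.

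Of the 6 heat shock genes, 0 were called in either direction, beside 10.1% lower and 6.43% higher over all genes tested. A difference between the gene groups was not tested. Their median ratio was 0.589, beside 0.174 for the AP-1 group, 0.162 for the EGR, NR4A, KLF and MYC group, 0.165 for the IER and feedback group and 0.266 for the growth arrest and survival group. *Hspa8*, the chaperone that cells make without stress, had an FPKM of 645, 532 and 575 in fragments and 559, 456 and 475 in mural cells. It was among the most abundant transcripts of both groups (rank 35 and rank 46), and the groups overlapped (log2 fold change -0.23, 95% confidence interval -0.55 to 0.08, adjusted p = 0.27 from limma). *Hsph1*, a nucleotide exchange factor for these chaperones, was at 15.5 ± 2.08 (SD, n = 3) in fragments and 16.1 ± 2.17 (SD, n = 3) in mural cells (log2 fold change 0.05, 95% confidence interval -0.37 to 0.48). *Dnajb1*, a co-chaperone induced by heat, had 51.8, 33.3 and 39.5 in fragments and 25.4, 25.4 and 24.6 in mural cells (1.65-fold lower, adjusted p = 0.031), under the 2-fold limit. *Hsp90aa1* had 172, 122 and 103 in fragments and 68.7, 57.0 and 101 in mural cells (1.75-fold lower, adjusted p = 0.063 from limma). Without mural cell library 3 the ratio of *Hsp90aa1* was 0.476 with an adjusted p of 0.0245, so that it was then called lower.

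The inducible heat shock genes *Hspa1a* and *Hspa1b* lie next to each other on chromosome 17 and cannot be separated well by reads. Their coding sequences were identical at 1918 of 1929 aligned positions (99.4%), and their values are therefore uncertain. *Hspa1a* had an FPKM of 7.39, 2.25 and 4.65 in fragments and 0.827, 0.986 and 4.19 in mural cells. *Hspa1b* had 24.4, 5.18 and 13.4 in fragments and 4.49, 7.36 and 2.53 in mural cells. Both were low, with overlapping groups and intervals that include 0 (log2 fold change -1.01, 95% confidence interval -2.23 to 0.21, for *Hspa1a*, and -1.27, -2.55 to 0.02, for *Hspa1b*). Without fragment library 2, *Hspa1b* was called lower with a ratio of 0.254 (adjusted p = 0.046 from limma), and without fragment library 1 its ratio was 0.516 (adjusted p = 0.403). Without mural cell library 3 the ratio of *Hspa1a* was 0.190 instead of 0.420 (adjusted p = 0.0562). The *Hspa1a* values in mural cells rest on 4, 2 and 9 fragments.

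Other genes of the same responses were taken from 4 further lists with 90 genes, of which 87 were tested, 20 were lower and 2 were higher in mural cells. The lower genes were 23.0% of those tested, beside 10.1% lower and 6.43% higher over all genes tested. Of 28 further immediate early genes tested, 13 (46.4%) were lower and 1 was higher. *Tnfaip3*, an inhibitor of NF-kB signalling, had an FPKM of 127, 79.1 and 155 in fragments and 10.3, 7.32 and 10.1 in mural cells (13.0-fold lower, adjusted p = 1.9e-04 from limma). *Rgs2*, a regulator of G protein signalling, had 52.5, 91.2 and 66.1 in fragments and 1.93, 14.1 and 2.19 in mural cells, where library 2 stood apart. *Gem*, *Rel* and *Dusp5* had log2 fold changes of -2.78, -2.38 and -3.32, of which the value of *Dusp5* rests on 7, 0 and 1 fragments in the mural cell libraries. The exception was *Ctgf*, a matrix-associated signalling gene, with 31.9, 32.4 and 26.2 in fragments and 45.5, 75.2 and 67.4 in mural cells (ratio 2.08, adjusted p = 0.012). Without fragment library 1 the number of lower genes over the 4 lists was 13.

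The kinases and factors that act upstream of the early genes, such as *Srf*, *Creb1* and the MAP kinases, had a median ratio of 0.999. Of 24 such genes 1 (4.17%) was called lower, the kinase gene *Rps6ka1* (ratio 0.360, adjusted p = 0.0011 from limma). Over all genes tested the share called lower was 10.1%. *Mapk14*, which encodes a p38 MAP kinase, had a ratio of 0.572 with an adjusted p of 0.0048 from limma and no overlap between the groups, but did not reach the 2-fold limit. Of 16 further chaperones 0 were lower and 1 was higher, beside 10.1% and 6.43% of all genes tested, and the median ratio was 0.912. The higher gene was *Cryab*, a small heat shock protein gene that muscle cells express, with an FPKM of 10.2, 14.4 and 7.78 in fragments and 94.4, 69.9 and 92.9 in mural cells. Its ratio of 7.94 was within the range of the mural markers. Of 19 genes of the unfolded protein and oxidative stress responses, 6 (31.6%) were lower. *Ddit3* and *Atf4*, factors of the integrated stress response, had ratios of 0.193 and 0.416, and the metallothionein gene *Mt1* had a ratio of 0.230. *Mt2* and *Trib3* were also lower, but rest on approximately 1 and 2 fragments in all mural cell libraries together. Both passed the filter on low values only through the fragment libraries, so that a call as higher was hardly possible. *Hspa5* and *Xbp1*, of the unfolded protein response in the endoplasmic reticulum, were not called.

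**Figure D3:**
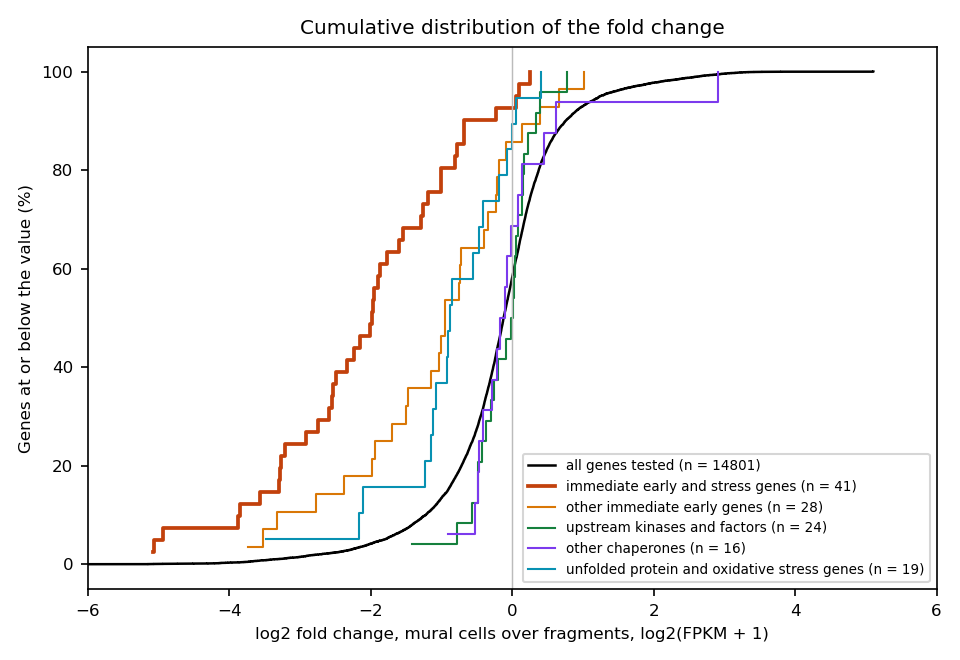
Cumulative share of genes (%) at or below each log2 fold change of mural cells over fragments, for all 14801 genes tested, the 41 immediate early and stress genes and 4 further lists. The curve of the 41 genes lies to the left of all others, with a median of -1.99, and the curves of the upstream kinases and factors and of the chaperones run close to that of all genes.

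Microglia markers moved in the same direction as most of the early and stress genes. All 8 were lower in mural cells, beside 10.1% of all genes tested, with ratios between 0.0708 and 0.110. They summed to an FPKM of 1564 to 1806 in fragments and 108 to 166 in mural cells. *Aif1* was listed at 0 in mural cell library 2, and the other 7 markers were above 0 in every library. Of the 41 early and stress genes, 5 had a ratio below the lowest of the microglia markers, 6 were within their range and 30 were above it. The 5 genes were *Fosb*, *Fos*, *Egr2*, *Atf3* and *Zfp36*, with ratios of 0.0234, 0.0290, 0.0311, 0.0313 and 0.0613. In all mural cell libraries together they rest on approximately 45, 149, 10, 42 and 43 fragments. Small distances from the markers are therefore imprecise. The ratios of the 5 perivascular macrophage markers lay between 0.0602 and 0.237. The summed level of the AP-1 group was 1920 to 2325 in fragments and 192 to 240 in mural cells. The part of microglia RNA in the differences was not tested.

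The early and stress genes also differed between the fragment libraries. Of the 41 genes, 30 were highest in fragment library 1 and 34 were lowest in fragment library 2, whereas over all genes tested 35.6% were highest in library 1 and 33.0% lowest in library 2. The median ratio of library 1 to library 2 was 1.46 for the 41 genes and 1.01 for all genes tested, and 35 of the 41 genes were higher in library 1. For *Nr4a1* the highest fragment library was 3.38 times the lowest. By comparison, the ratio of library 1 to library 2 had a median of 0.838 for the microglia markers, 0.608 for the perivascular macrophage markers and 1.02 for the endothelial markers. It was 1.14 for the mural markers and 0.728 for the astrocyte markers. The summed FPKM of the microglia markers, however, was 1564 in library 1 and 1570 in library 2. The part of cell composition in the difference between fragment libraries was not tested.

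On the log2(FPKM + 1) scale, the median SD between the fragment libraries was 0.33 for the 41 genes and 0.20 for all genes tested. Between the mural cell libraries it was 0.34 for the 41 genes and 0.33 for all genes tested. In mural cells 20 of the 41 genes were highest in library 1, 9 in library 2 and 12 in library 3, beside 34.4%, 33.8% and 31.8% of all genes tested. Mural cell library 3 was the lowest for 19 of the 41 genes and for 33.4% of all genes tested. The order of the fragment libraries was not shared by all early and stress genes, as 11 were not highest in library 1 (*Fos*, *Fosb*, *Jun*, *Jund*, *Atf3*, *Klf2*, *Klf6*, *Myc*, *Dusp1*, *Btg2* and *Mcl1*).

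**Figure D4:**
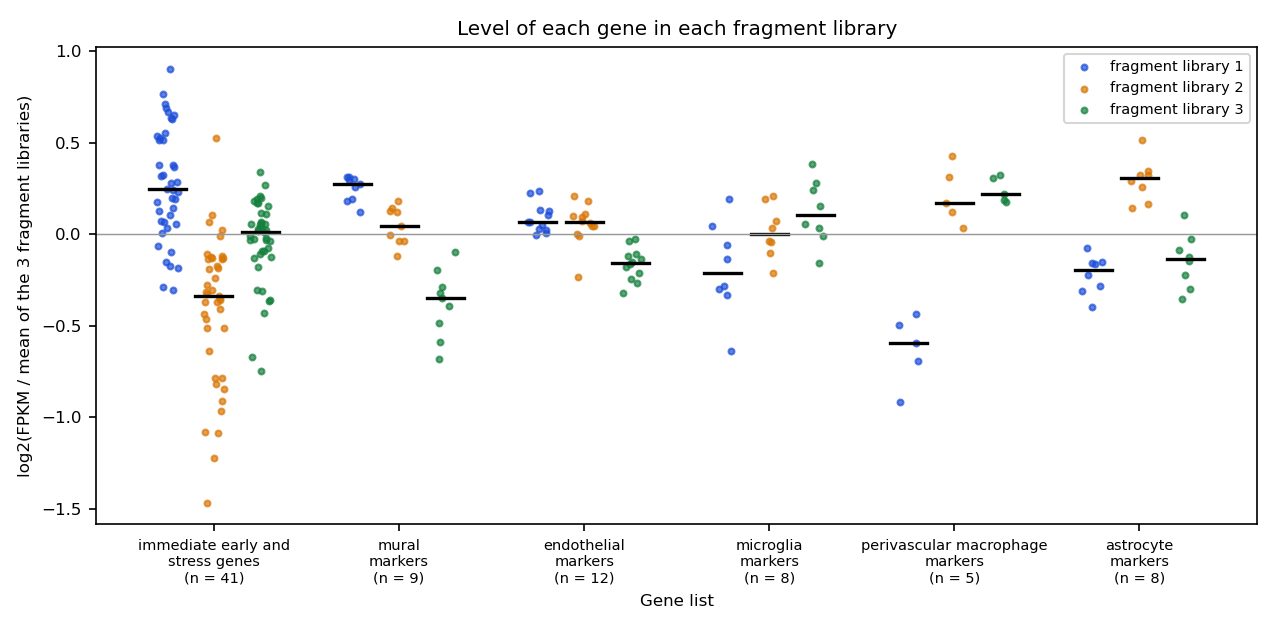
Level of each gene in fragment libraries 1, 2 and 3 as log2 of its FPKM over the mean of the 3 libraries, for the 41 immediate early and stress genes and 5 lists of cell type markers. Points are genes and black lines are medians. The median of the early and stress genes is highest in library 1 and lowest in library 2, whereas the medians of the microglia and perivascular macrophage markers are lowest in library 1.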

How the data were processed

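RNA-seq libraries of 3 sorted mural cell samples and 3 microvascular samples were compared. The authors deposited 1 FPKM value per Ensembl gene and library. According to the methods and the submitters' processing notes, TopHat2 2.0.4 was used for alignment (paired-end, NCBIM37), Picard 1.92 for the removal of duplicates and Cufflinks 2.2.1 thereafter. Strand use in counting and any scaling between libraries are not given in the sources used here. Libraries came from a rRNA-depleted, stranded low-input kit, and removal of duplicates can lower the values of very abundant genes.

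From these files 1 line was kept for each of 9 repeated identifiers. log2(FPKM + 1) was fitted with limma 3.58.1 (R 4.3.3) with an intensity trend over the 14801 genes that reached an FPKM of 1 in 3 or more samples, and p-values were adjusted over all of them. Calls needed an adjusted p under 0.05 and a ratio of mean FPKM above 2 or under 0.5. Some genes passed the filter only through the fragment libraries and could hardly be called higher. Among them are *Egr2*, *Dusp5*, *Mt2* and *Trib3*. Their calls are part of the counts of lower genes and are no independent support. The log2 fold change understates differences of low genes. On simulated data the fit recovered part of the changed genes, and its false lower calls were above the nominal rate. Most of the false lower calls were genes at 0 in all mural cell libraries. Counts of lower genes over all genes are therefore less certain. Count models were not applied to FPKM. Fragments were recovered from the FPKM of genes with a single transcript, of which 98.3 to 98.7% of low values were whole multiples within 0.1, and approximately for other genes with their longest transcript. They cover counting error only.

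Groups came from the sample titles, which number the replicates 1 to 3 in both groups. Deviations of same-numbered samples correlated with r of 0.08, 0.02 and 0.05, and the numbers were not taken as pairs. Since the labels do not tie samples to animals, p-values measure the spread between these samples. The members and lists were chosen with earlier results of these data known. Named were all called genes of the list, the 3 with the highest mean FPKM, those with a spread over 4-fold in a group, and up to 5 called genes of each further list by log2 fold change. *Mapk14*, *Hspa5* and *Xbp1* were named after their values were seen, as were the exceptions in the order of the fragment libraries. *Fosl1*, *Hspa1a*, *Gadd45a*, *Ppp1r15a*, *Jun*, *Jund* and *Egr1* overlap a gene on the opposite strand in the annotation. Alternatives were another pseudocount, filter, scaling, threshold, gene set and fold measure, a fit without the trend, a block for the replicate number and leaving out each sample.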

Additional observations from a re-analysis of the deposited data

How the results depend on the processing

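The number of early and stress genes called lower was 30 in the analysis as reported and lay between 27 and 32 over the alternatives that kept all 6 samples, with 0 called higher in each. Leaving out each sample in turn gave 26 to 32 lower. In the fit with a replicate block, 30 were lower and 0 higher, each of the 41 genes stayed on its side of the threshold, and over all genes 1344 were lower and 900 higher. In the check of the pairing every sample correlated best with the sample of its own number, but all correlations were weak. For mural cell library 2, r was 0.020 with fragment library 2 and 0.010 with fragment library 3. This order comes from the data and not from the design, and cannot decide whether the numbers mark pairs. Quantile normalization moved the median log2 fold change of all genes from -0.12 to 0.01 and the calls over all genes from 1493 lower and 952 higher to 1080 lower and 1212 higher, while 30 early and stress genes were lower as before. At an adjusted p under 0.01, 845 genes were lower over all genes, 27 of the early and stress genes were lower and 1 gene of the further lists was higher. Leaving out genes at 0 in all libraries of a group gave 1158 lower among 14528 genes tested and 30 lower among the early and stress genes. With a filter at an FPKM of 5, 948 of all genes were lower, as fewer genes were tested. Leaving out each sample gave 607 to 1733 genes lower over all genes, 13 to 21 lower and 1 to 2 higher in the further lists. The sign changed for uncalled genes only, when a sample was left out. The log2 fold change ranged over these fits from -0.51 to 0.51 for *Myc*, from -0.039 to 0.59 for *Gadd45a* and from -0.043 to 0.15 for *Hsph1*. The median log2 fold change of the 41 genes lay between -2.27 and -1.86 when samples were left out. The depth of 1.04 to 2.34 M fragments limits genes at a few fragments in some or all mural cell libraries. Among them are *Atf3*, *Egr2*, *Egr3*, *Nr4a2*, *Socs3*, *Dusp2*, *Gadd45g* and *Hspa1a*, for which the size of a difference is imprecise.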
